A study of Populus trichocarpa with 18 samples.

Results

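In the differentiating xylem of Populus trichocarpa (black cottonwood) stems, 150 abundant genes of normal wood were examined across both wood types and 3 laser-captured regions. The members were chosen by their measured counts in the same libraries: counts of the 9 normal and of the 9 tension libraries were pooled, each gene was scaled to CPM, its count divided by the total of its table and multiplied by 1000000, genes with a normal CPM at least 8 times the tension CPM were kept, and the 150 with the highest normal CPM were taken. Of 4347 genes listed in both tables, 925 (21.3%) passed the 8-fold condition, and 11294 genes are listed in either table. Because normal against tension wood chose the members, every level and ratio between the woods below is a description and carries no test.

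All 18 libraries came from wild type trees aged 5 to 12 months, propagated from branch cuttings and grown in a glasshouse or growth chamber. The tension wood groups came from stems kept bent for 21 days, and the sources used here do not say whether the normal wood trees were unbent. Debarked stems were sectioned at 16 µm, and a laser cut each section of xylem into 5 bands, of which Region 1, Region 2 and Region 3 were kept. Each of the 6 groups (normal or tension wood, Region 1, 2 or 3) held 3 biological replicates, and each replicate was a pool of about 1600000 µm2 of captured tissue. The pooling means that a replicate is an average over tissue pieces, and the number of trees in a pool is not given.

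Tension wood is the reaction wood that broadleaf trees form along the upper flank of leaning stems. Its fibres often carry an inner gelatinous layer rich in cellulose and poor in lignin, whereas normal wood fibres carry the usual lignified secondary wall. Differentiating xylem holds fibres, vessel elements and ray cells that expand, thicken their walls and, for fibres and vessel elements, die in the course of maturation. The files give gene identifiers only, and the reference gene table matched 0 of the 11294 identifiers, so no member has a name, a description or a sequence here. Members are therefore given by identifier and level, and neither their functions nor the markers of xylem or of other tissues were analysed here.

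Totals ran from 6254 to 20080 counts per normal library and from 8982 to 89358 per tension library. A floor of 3 counts corresponds to 149 to 480 CPM in single normal libraries and to 33.6 to 334 CPM in single tension libraries. Each table holds 1 wood, so wood type cannot be told apart from any separate handling of the 2 sets of libraries.

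The members were a major part of the counts in normal wood and a minor one in tension wood. In normal wood, 27105 of 96725 counts (28.0%) fell on the 150 members, and in tension wood 4370 of 426338 (1.03%). By library the share ranged from 26.5% to 30.3% in normal wood and from 0.974% to 1.28% in tension wood, so each normal library lay far above each tension library. For normal wood, Region 1 gave 26.6% ± 0.230, Region 2 gave 28.6% ± 0.777 and Region 3 gave 29.1% ± 1.498 (SD, n = 3). Tension wood gave 1.02% ± 0.0192, 1.02% ± 0.0444 and 1.12% ± 0.136 in the same order (SD, n = 3). In normal wood each Region 1 library (26.5%, 26.5% and 26.9%) lay below each library of Region 2 (28.4%, 29.4% and 27.9%) and Region 3 (30.3%, 29.5% and 27.4%), while Regions 2 and 3 overlapped. In tension wood the regions overlapped. The 1.28% was that of Region 3, replicate 2, the tension library with the lowest total, where 115 of 8982 counts fell on members (Wilson 95% interval 1.07% to 1.53%). Without replicate 2 the pooled tension share was 1.03%. In bulk tissue such as this, fewer cells of a type and less RNA per cell cannot be told apart.

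**Figure D1:**
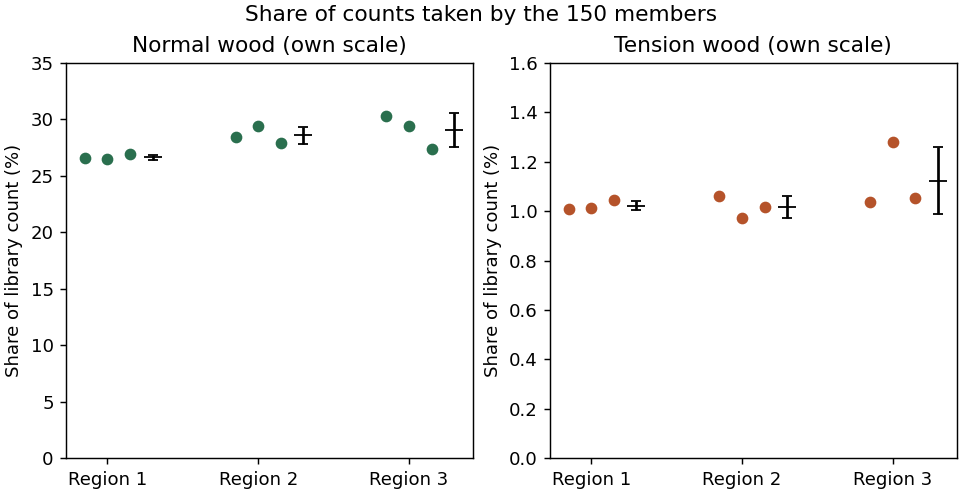
Share of each library's count taken by the 150 members (vertical axis, percent), for 3 replicates of each region, with the wood types on separate scales. Points are libraries, and the bar beside them is the mean with its SD (n = 3); normal libraries lie between 26.5% and 30.3% and tension libraries between 0.974% and 1.28%.

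For scale, the rule was also turned round. The 150 most abundant genes with a tension CPM at least 8 times the normal CPM made up 21.2% of the counts in tension wood and 1.62% in normal wood. Both sets were chosen by these same values, so the mirrored shares are descriptions as well.

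Among the genes that are abundant in normal wood, most were members. The lowest member had 108 counts in normal wood (1117 CPM), and 234 genes in both tables reached that count, of which 150 (64.1%) are members. The other 84 had a median normal to tension ratio of 3.24. Of these, 69 had a ratio from 1 up to 8 and 14 had a higher CPM in tension wood, and 1 tied with the last member on counts and fell outside by identifier. No gene listed only in the normal table reached the level of a member, the highest of those 2416 genes having 92 counts. Members made up 5 of the 10, 28 of the 50 and 65 of the 100 highest genes of the normal table. Their ranks in the tension table ran from 274 to 6140 of 8878, with a median of 3408, and no member was among its 100 highest genes.

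**Figure D2:**
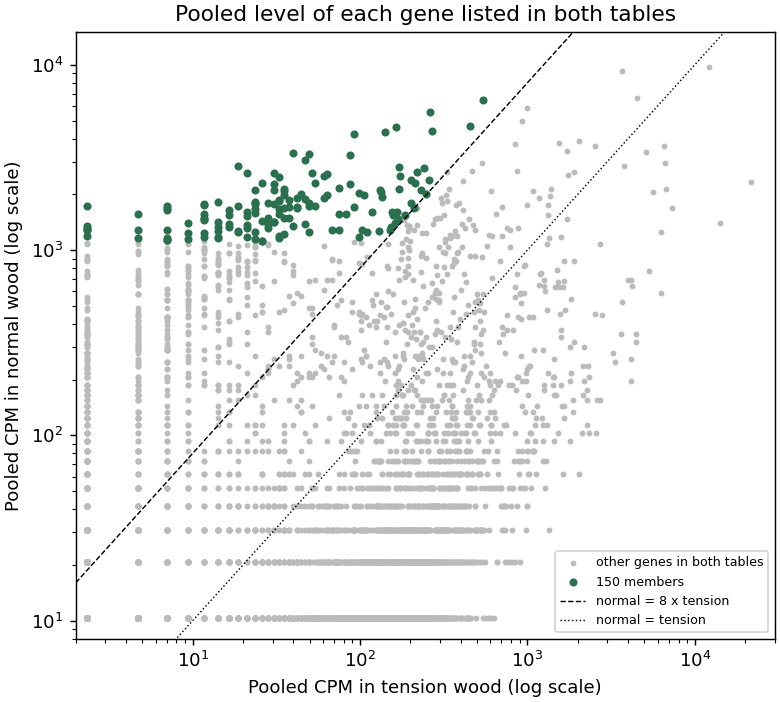
Pooled CPM in tension wood (horizontal, log scale) against pooled CPM in normal wood (vertical, log scale) for the 4347 genes listed in both tables. Green points are the 150 members, which lie above the dashed 8-fold line at 1117 to 6472 CPM in normal wood and 2.35 to 544 CPM in tension wood.

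The counts were not concentrated in a few members. The 10 highest held 15.8% of the members' counts in normal wood, and 4.43% of all normal counts. These 10 are described by their level because no member has a description to choose by, and that choice was made after their values were seen.

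Potri.009G136600.v4.1 was the most abundant member, at 6472 CPM in pooled normal wood and 544 CPM in tension wood (ratio 11.9, 95% counting interval 10.2 to 13.9). Its normal levels were 7553, 7079 and 5410 CPM in Region 1, 6225, 6100 and 6194 CPM in Region 2, and 6803, 5968 and 6716 CPM in Region 3, in replicate order 1 to 3. Its tension levels were 621, 470 and 629 CPM, then 537, 443 and 660 CPM, then 363, 891 and 342 CPM. The highest tension library held 891 CPM and the lowest normal library 5410 CPM, so the woods did not overlap. It was also the steadiest member among normal libraries, with a coefficient of variation (SD over mean) of 10.0%.

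Potri.018G100232.v4.1 stood second, at 5562 CPM in normal and 260 CPM in tension wood. In normal wood it had 4221, 9526 and 7007 CPM in Region 1, 4333, 4971 and 4443 CPM in Region 2, and 4468, 6590 and 5117 CPM in Region 3. In tension wood it had 226, 269 and 322 CPM, then 256, 213 and 254 CPM, then 36.3, 1336 and 85.5 CPM. Tension Region 3, replicate 2 thus lay apart from its group with 12 counts, against 1 count in each of the others. The mean of that group was 486 ± 737 CPM (SD, n = 3), and the woods still did not overlap.

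Potri.002G104400.v4.1 came next, at 4673 CPM in normal and 455 CPM in tension wood, a ratio of 10.3. Its normal levels were 4147, 3408 and 3015 CPM in Region 1, 6175, 3954 and 4174 CPM in Region 2, and 5585, 5844 and 4957 CPM in Region 3. Its tension levels were 384, 459 and 276 CPM, then 741, 567 and 508 CPM, then 399, 557 and 342 CPM. In normal wood the Region 3 libraries all lay above those of Region 1, and in tension wood the Region 2 libraries all lay above those of Region 1.

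Potri.004G172000.v4.1, the seventh member, held 4443, 3408 and 3902 CPM in Region 1 of normal wood, 3436, 4406 and 3366 CPM in Region 2, and 2945, 5595 and 9914 CPM in Region 3. In tension wood it had 7, 13 and 5 counts in Region 1, 7, 4 and 2 in Region 2, and 0, 1 and 0 in Region 3. Its pooled ratio was 46.6 (95% counting interval 33.5 to 66.4). A single normal library, Region 3 of replicate 3, was the highest at 9914 CPM.

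The other 6 of the 10 highest had pooled normal levels from 3277 to 4621 CPM and ratios from 16.4 to 84.3. Potri.016G134700.v4.1 had 4621 CPM against 164 CPM, Potri.014G019600.v4.1 had 4394 CPM against 267 CPM and Potri.008G198000.v4.1 had 4332 CPM against 141 CPM. Lower levels in tension wood were seen for Potri.015G047100.v4.1 (3360 CPM against 39.9 CPM), Potri.006G056500.v4.1 (3319 CPM against 49.3 CPM) and Potri.018G100300.v4.1 (3277 CPM against 86.8 CPM). The first of these had 63, 30 and 33 counts in Region 1 of normal wood and 4, 3 and 5 counts in the deeper Region 1 libraries of tension wood.

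Normal to tension ratios of the members spread over almost 2 orders of magnitude. The median pooled ratio was 48.7, with quartiles of 21.0 and 88.0 and a range from 8.07 to 740. Of the 150 members, 29 had a ratio under 16, 18 from 16 up to 32, 44 from 32 up to 64, 36 from 64 up to 128, and 23 of 128 or more. Tension counts behind these ratios were low: the median member had 14 counts over 9 tension libraries, 16 members had 1 to 3, and 7 had over 100.

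Potri.003G070600.v4.1 had the highest ratio. It was present in each normal library, at 1703, 1748 and 1508 CPM in Region 1, 1643, 1695 and 1616 CPM in Region 2, and 2031, 1616 and 2398 CPM in Region 3. In tension wood it had 1 count, in Region 1 of replicate 1, and 0 in the other 8 libraries. The ratio of 740 has a 95% counting interval from 131 to 29420, so its size is poorly fixed while its normal level varied little (15.5% coefficient of variation over 9 libraries). Potri.002G141500.v4.1 (130 counts against 1) and Potri.018G095100.v4.1 (127 against 1) followed, with ratios of 573 (101 to 22804) and 560 (98.7 to 22282).

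At the other end, Potri.018G070500.v4.1 had 163 counts in normal and 89 in tension wood, a ratio of 8.07 (95% counting interval 6.20 to 10.6). Potri.014G169100.v4.1 had 194 against 105 (ratio 8.14) and Potri.007G017900.v4.1 had 149 against 79 (ratio 8.31). Just outside the 8-fold condition lay Potri.001G092600.v4.1, with 255 against 141 counts (7.97), and Potri.006G036500.v4.1, with 141 against 78 (7.97). At the abundance limit, Potri.012G002200.v4.1 and Potri.001G119500.v4.1 were the last members with 109 and 108 normal counts, and Potri.012G094600.v4.1 and Potri.001G253200.v4.1 with 108 and 107 were the first outside. Counting error alone spans both limits, so membership near them is not sharp.

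Every member had at least 1 count in each of the 9 normal libraries. In tension wood 21 members had a count in each of the 9 libraries, and 35 had 0 in at least 5. The number of members with a count was 124 to 128 in Region 1, 107 to 112 in Region 2 and 51 to 96 in Region 3 of tension wood, where library totals also fell in that order of regions. All 150 members had the 3 normal libraries above the 3 tension libraries in Region 1, in Region 2 and in Region 3. Over all genes in both tables this held for 16.4%, 15.3% and 13.8%. With all 9 libraries of each wood it held for 149 members and for 10.7% of all genes. The rule used this contrast, so the members' counts say nothing beyond it. The exception was Potri.018G087900.v4.1, whose lowest normal library (350 CPM, 4 counts, Region 1 of replicate 2) lay below its highest tension library (891 CPM, 8 counts, Region 3 of replicate 2). Scaled by TMM factors, which set libraries relative to each other by trimmed means of gene ratios, the median pooled ratio fell to 28.5, 125 members kept a ratio of at least 8 and the lowest ratio was 4.72.

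**Figure D3:**
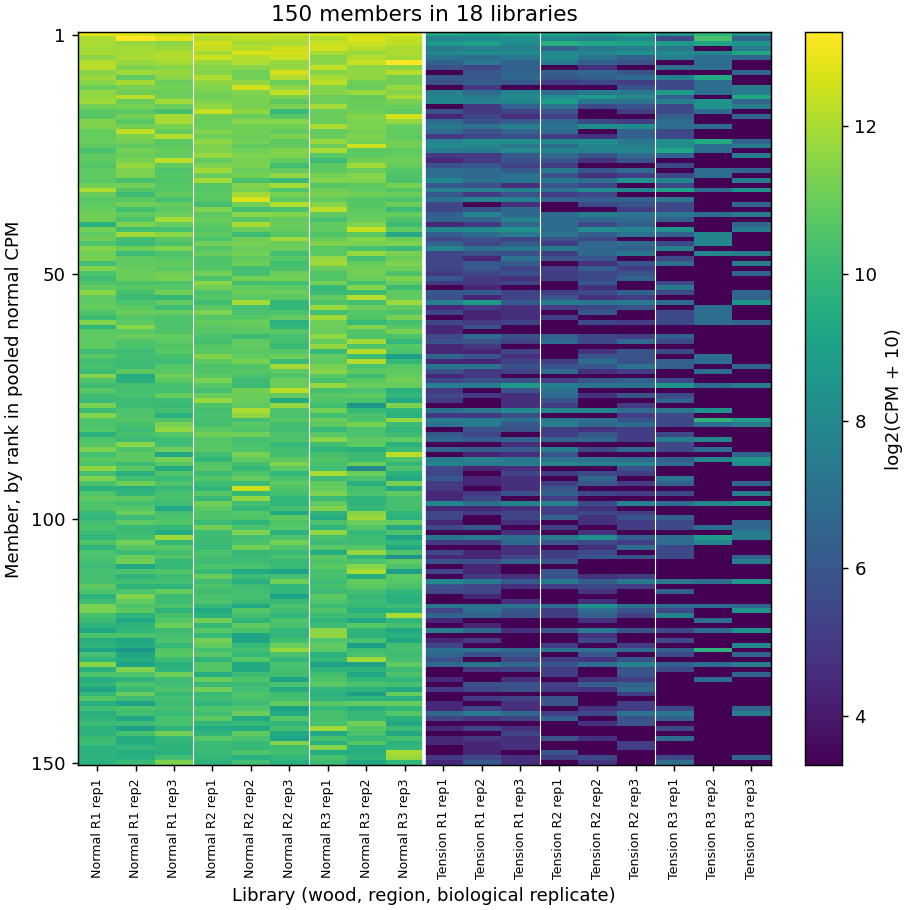
Levels of the 150 members (rows, in order of pooled normal CPM) in the 18 libraries (columns, by wood, region and replicate), coloured by log2(CPM + 10). All rows are bright in the 9 normal columns; the dark cells of the tension columns are members at or near 0, most frequent in Region 3, where 51 to 96 members had a count.

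Ratios were of like size in the 3 regions when the members were summed. The summed CPM of the members was 26.1 times as high in normal as in tension wood in Region 1, 28.2 times in Region 2 and 27.0 times in Region 3. Gene by gene, 4 members had no count in Region 1 of tension wood, 10 had none in Region 2 and 36 had none in Region 3. These were placed at a lower bound (a floor of 3 counts over the 3 libraries). The median of ratios and bounds together was 48.4, 43.5 and 26.4 in Regions 1 to 3. The floor lay at 62.2 CPM in Region 3 against 12.3 CPM in Region 1. At the same normal level, this bound places a member with no count lower than a member with 1 count. The part of the bound in the lower median of Region 3 was not tested. The median normal level of the members was 1601, 1650 and 1760 CPM in Regions 1 to 3. Their median tension level, members with no count included, was 32.9, 37.0 and 41.4 CPM. A ratio, or bound, under 8 was found for 9 members in Region 1, 5 in Region 2 and 8 in Region 3. With TMM factors the medians were 21.5, 29.8 and 27.2.

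**Figure D4:**
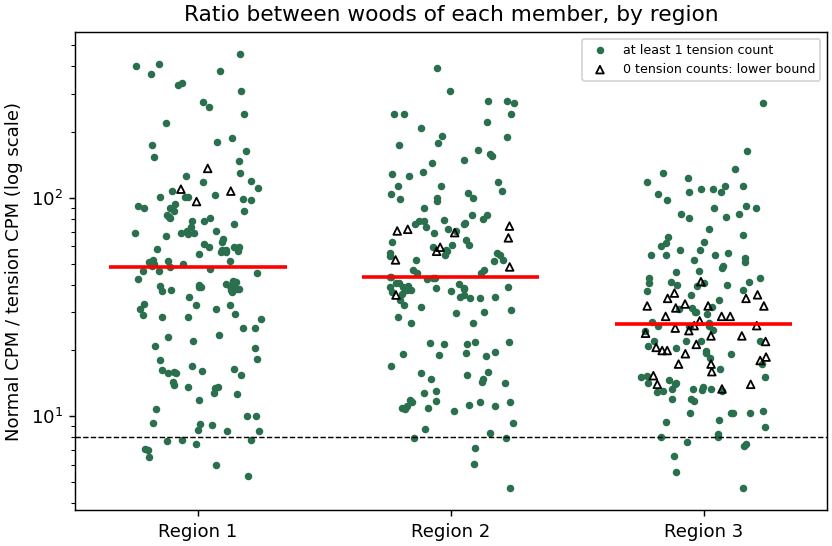
Normal over tension CPM of each member (vertical, log scale) within Regions 1 to 3. Filled points have at least 1 tension count, and open triangles are lower bounds for the 4, 10 and 36 members with 0 tension counts. The dashed line marks 8, and red bars mark the medians of ratios and bounds together, 48.4, 43.5 and 26.4.

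The comparison of regions asks whether the members differ between bands of developing xylem within a wood. The rule pooled the regions and did not use this contrast directly. Pooling weights each region by its counts, and in tension wood Region 1 supplied 243096 of 426338 counts and Region 3 supplied 48254. The choice of members is therefore not fully independent of region differences in tension wood, or of how these differ between the woods. In normal wood no member was called between any 2 regions. Across the 318 genes tested by the quasi-likelihood F test of edgeR, with the biological replicate as a block and Benjamini-Hochberg adjustment, 0% were called for Region 2 against Region 1, 0.314% for Region 3 against Region 1 (1 gene, no member) and 0% for Region 3 against Region 2. All 150 members passed the filter on low counts there, as the rule takes abundant genes of normal wood. DESeq2 also called 0 members in each of the 3 comparisons, with 5, 9 and 3 at an unadjusted p under 0.05.

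Differences of the members between regions of normal wood centred near 0. The median log2 change was 0.04 for Region 2 against Region 1 (79 higher, 71 lower), 0.09 for Region 3 against Region 1 (86 higher, 64 lower) and -0.04 for Region 3 against Region 2 (70 higher, 80 lower). All genes tested had medians of -0.02, 0.03 and -0.03. Unadjusted edgeR p-values under 0.05 were reached by 8, 12 and 8 members, against 13, 27 and 21 of all 318 genes. The 318 include the members. The 168 genes tested that are not members had medians of -0.07, -0.05 and 0.01, and 5, 15 and 13 of them reached that p. The data leave room for changes in single members: the 95% interval of the change had a median half-width of 0.84 to 0.88 on the log2 scale, and it lay inside a 2-fold change either way for 45, 35 and 35 members.

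**Figure D5:**
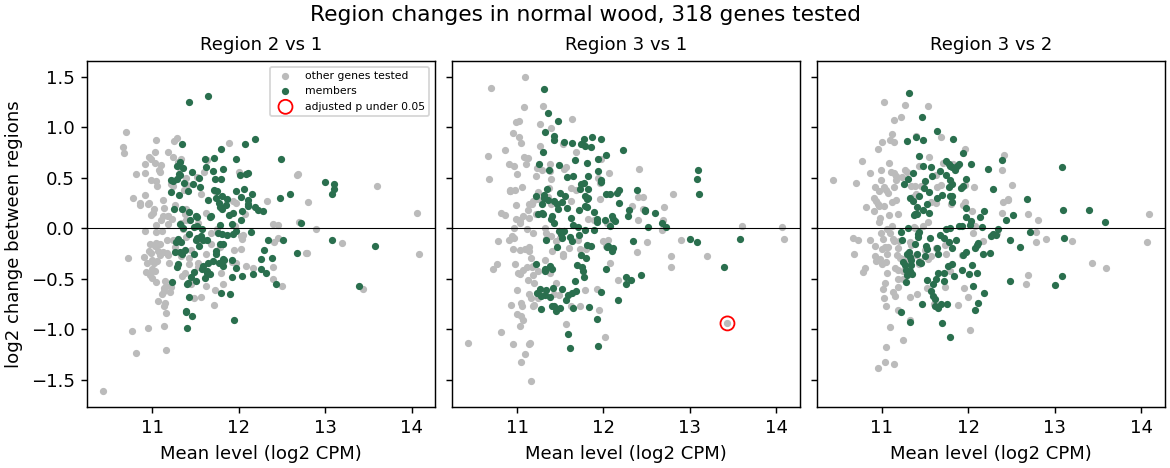
Log2 change between regions of normal wood (vertical) against mean level (horizontal, log2 CPM) for the 318 genes tested, with members in green and other genes in grey. Members scatter around 0 between -1.19 and 1.38; the single circled gene, in Region 3 against Region 1, has an adjusted p under 0.05 and is no member.

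The members with the widest estimates show how replicates behaved. Potri.001G110800.v4.1 had 889, 524 and 887 CPM in Region 1 of normal wood, 697, 678 and 1212 CPM in Region 2, and 3554, 1616 and 1119 CPM in Region 3. Its log2 change from Region 1 to Region 3 was 1.38 (SE 0.47, edgeR adjusted p = 0.482), the largest upward estimate of a member. The Region 3 libraries all exceeded those of Region 1, although they themselves ranged from 1119 to 3554 CPM. Potri.006G139300.v4.1 had the most negative estimate, -1.19 (SE 0.46, edgeR adjusted p = 0.482), with 2518, 1486 and 2040 CPM in Region 1, 1693, 1469 and 1212 CPM in Region 2, and 914, 746 and 1119 CPM in Region 3. Its Region 3 libraries lay below all those of Region 1. Potri.006G223900.v4.1 gave -1.16 (SE 0.42, edgeR adjusted p = 0.482), with 1851, 3845 and 2927 CPM in Region 1 and 1523, 1741 and 640 CPM in Region 3. None of these passed the threshold. They were named after their values were seen.

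Some members had the same sign of difference in each of the 3 replicates. From Region 1 to Region 3 of normal wood, 24 of the 150 members were higher and 19 lower in 3 of 3 replicates. From Region 1 to Region 2, 30 were higher and 16 lower, and from Region 2 to Region 3, 18 were higher and 21 lower. The 84 other genes with at least 108 normal counts gave 16 higher and 11 lower, 15 and 6, and 11 and 10 in the same order. Agreement of signs was thus seen in members and in other genes alike, and no level for random signs was worked out. In tension wood more members were lower than higher in CPM in all 3 replicates. From Region 1 to Region 3, 5 were higher and 21 lower. The counts were 10 and 18 from Region 1 to Region 2, and 3 and 18 from Region 2 to Region 3. Signs of other genes were not counted in tension wood, so nothing particular to the members can be read from these. Library totals in tension wood also fell from Region 1 to Region 3 and more members were at 0 there, and the part of depth in these signs was not tested.

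In tension wood the members were too low for most to be tested. Of the 150, 8 passed the filter on low counts, and they passed because they are the members with the highest tension counts. None of the 8 was called by edgeR or by DESeq2 in any comparison of regions. Among all 1171 genes tested, 0.171% were called for Region 2 against Region 1, 0.342% for Region 3 against Region 1 and 0% for Region 3 against Region 2. An unadjusted p under 0.05 was reached by 1 of the 8 for Region 2 against Region 1 and by 0 in the other comparisons. That member was Potri.002G104400.v4.1, with a log2 change of 0.71 (SE 0.31, edgeR adjusted p = 0.971). For Potri.009G136600.v4.1 the estimates were -0.05 (95% interval -0.66 to 0.55) for Region 2 and -0.25 (-1.05 to 0.55) for Region 3 against Region 1.

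Whether the change from Region 1 to Region 3 differed between the woods was fitted over all 18 libraries. With TMM factors, 4 of the 150 members were called, all with a lower change in tension wood, against 8.55% of the 573 genes tested. All 150 members passed the filter there through their counts in normal wood, for which they were chosen, whereas 8 passed in tension wood alone, so their count of calls is given as a description. The whole fit was displaced, however: the median over all genes tested was -1.34 on the log2 scale, close to the members' median of -1.38, and all 49 calls were negative. The TMM factors of the tension libraries ran from 0.444 in a deep Region 1 library to 1.54 in the shallowest Region 3 library, whereas those of normal libraries stayed between 1.36 and 1.43. Scaled by each library's total over the genes tested, the median of all genes was -0.09 and the members' median was -0.23. With that scaling 0 members were called by edgeR (7 with an unadjusted p under 0.05). The 3 genes called then all had a higher change from Region 1 to Region 3 in tension than in normal wood, and DESeq2 called 0 members (6 with an unadjusted p under 0.05).

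The 4 members were Potri.004G172000.v4.1 (log2 difference -3.73, edgeR adjusted p = 0.026), Potri.014G169100.v4.1 (-2.27, 0.030), Potri.002G104400.v4.1 (-1.72, 0.038) and Potri.018G070500.v4.1 (-2.08, 0.042). Relative to the median of all genes these amount to -2.39, -0.94, -0.38 and -0.75. With any 1 normal replicate left out, edgeR called 0 members, the members' median was 0.06, 0.06 and -0.15 without replicates 1, 2 and 3, and the 5, 4 and 3 genes called all had a higher change in tension wood. Without tension replicate 1, 8 members were called, and without tension replicate 2 or 3 none was (24 and 21 with an unadjusted p under 0.05). The first of them is the member described above, with 1 count in Region 3 of tension wood and 1 normal library at 9914 CPM.

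The level of single members varied between the 9 normal libraries, which come from 3 regions and separate biological replicates. The coefficient of variation over the 9 normal libraries had a median of 38.3% (range 10.0% to 97.5%). Measured against a constant share of each library, chi-square per degree of freedom had a median of 2.71, where independent counts of a constant share give a value near 1, and it was over 2 for 99 members (66.0%). The 84 other genes of this abundance had a median of 2.74, and 65.5% were over 2. Potri.007G130100.v4.1 varied most: it held 815, 787 and 976 CPM in Region 1, 946, 5648 and 1481 CPM in Region 2, and 1929, 1243 and 640 CPM in Region 3. Its 50 counts in Region 2 of replicate 2 stood against 4 to 19 in the other 8 libraries. Its estimate for Region 2 against Region 1 was 1.31 (edgeR adjusted p = 0.830), with Region 2 higher in 3 of 3 replicates.

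The order of the members by level was kept only in part from region to region. Across the 150 members, the Spearman correlation of pooled levels in normal wood was 0.558 between Regions 1 and 2, 0.427 between Regions 1 and 3 and 0.522 between Regions 2 and 3. In tension wood it was 0.839, 0.731 and 0.695. Members with a higher normal level tended to have a higher tension level (Spearman 0.520). These are descriptions across genes that share libraries, and the rule cut the range of normal levels. It also capped the tension level of each member at its normal level divided by 8. That cap rises with the normal level, so the 0.520 may be partly set by the choice of members.

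The identifiers place the members on all 19 chromosomes, since the digits after the species prefix give the chromosome and a locus number along it. Chromosome 6 held 13 members, chromosome 10 held 12, and chromosomes 1, 8 and 18 held 11 each, while chromosomes 12 and 19 held 2 each. The share of members exceeded that of all genes in both tables most on chromosomes 18 (7.33% and 4.07%), 7 (6.67% and 3.43%), 11 (5.33% and 3.61%) and 16 (4.67% and 3.34%). Smaller excesses included chromosomes 6 (8.67% and 7.48%), 8 (7.33% and 6.14%) and 10 (8.00% and 7.11%). The share of members fell below most on chromosomes 1 (7.33% and 11.1%), 9 (2.00% and 4.72%), 12 (1.33% and 3.52%) and 19 (1.33% and 2.78%). A member was next to another member, among listed genes, in 5 of 150 cases (3.33%), against 2.74% of all genes in both tables that were next to a member. Neighbours of the opposite kind, with a tension CPM of 100 or more and at least 8 times the normal CPM, were found for 25.3% of members and 21.4% of all genes.

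The 5 adjacent members form 2 groups. On chromosome 18, Potri.018G100166.v4.1, Potri.018G100232.v4.1 and Potri.018G100300.v4.1 follow each other, with 139, 538 and 317 counts in normal and 11, 111 and 37 in tension wood. The next listed gene, Potri.018G100400.v4.1, is no member, with 102 counts in normal and 243 in tension wood (ratio 1.85). Within the run the pooled ratios were 55.7, 21.4 and 37.8. On chromosome 2, Potri.002G123000.v4.1 and Potri.002G123100.v4.1 had 110 and 142 counts in normal and 3 and 5 in tension wood. If neighbouring genes are near-identical copies, the counting may have split tags between them, so levels of single genes in these groups are uncertain.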

How the data were processed

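The authors deposited raw counts per gene and library in 1 table per wood. The tools named are STAR, featureCounts and UMI-tools, per the submitters' processing notes; versions, settings, genome build, strand handling and whether a count is a read or a molecule are not given in the sources used here. The library kit was QIAGEN UPX, which reads transcript ends, per the labels' protocols. All 18 columns matched a labelled sample, and 0 were left unused.

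CPM were computed from the deposited counts over all counts of a library, or of a table when pooled. Intervals and floors (3 counts) cover counting error only: exact binomial for ratios, Wilson for shares. Region tests used edgeR 4.0.16 in R 4.3.3 (quasi-likelihood, TMM, filterByExpr with a minimum count of 10, adjusted p under 0.05 over all genes tested), within each wood over 9 libraries, blocking on biological replicate, and over 18 libraries with 6 blocks for the difference between woods. DESeq2 1.42.0 was an alternative. Each title ties 3 regions to 1 replicate number, hence the block; deviations of same-numbered libraries correlated weakly (median r 0.05 in normal and -0.01 in tension wood, 9 pairs each). Scripts were tested on simulated data.

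The members and lists were chosen with earlier results of these data known. Genes named are those called, those with the 3 highest and 3 lowest ratios and those beside each limit of the rule; the planned lists by description and the cell type markers needed annotation and could not be formed, and other named genes were chosen after their values were seen.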

Additional observations from a re-analysis of the deposited data

Results flagged for a closer look

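The interaction term of the edgeR fit with TMM factors, which compares the change from Region 1 to Region 3 between the woods, passed the threshold for 4 members. All 150 members entered that fit through their normal counts, for which they were chosen, and 8 passed the filter in tension wood alone, so these values are descriptions. Potri.004G172000.v4.1 had a log2 difference, tension minus normal, of -3.73. Potri.014G169100.v4.1 had one of -2.27. Potri.018G070500.v4.1 gave -2.08 and Potri.002G104400.v4.1 gave -1.72. The same fit put the median of all genes at -1.34. Scaling by each library's total over the genes tested gave -2.55, -0.99, -0.82 and -0.42 in the same order. The edgeR adjusted p were then 0.772, 0.827, 0.836 and 0.856. No group here holds more than 3 libraries, so single outlying libraries were not tested.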

How the results depend on the processing

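In normal and in tension wood no member was called between regions under any setting run. The settings were library totals over the genes tested, RLE factors, DESeq2, no filter, no replicate block and each replicate left out. In normal wood 146 to 150 members were tested. In tension wood the fits with the filter tested only 8 to 19 members, and DESeq2 and the fit without the filter took in all 150. Among all genes, the single call for Region 3 against 1 in normal wood became 0 without the replicate block, with RLE factors and without the filter, and 2 with DESeq2 (0 to 1 when a replicate was left out); DESeq2 called 4 for Region 3 against 2. In tension wood the counts became 8 without the filter for Region 3 against 1 and 2 with DESeq2 for Region 3 against 2, and leaving out a replicate gave 0 to 1, 0 to 5 and 0 to 1 for Region 2 against 1, 3 against 1 and 3 against 2. For the difference between woods, 4 members and 49 genes were called, the 49 with a lower change from Region 1 to Region 3 in tension wood. With library totals over the genes tested these counts became 0 and 3, and with RLE factors 0 and 1. The genes called with either scaling all had a higher change in tension wood. The counts were 0 and 0 with DESeq2, 0 and 7 without the filter, and 6 and 47 without the replicate block. Leaving out a replicate gave 0 to 8 members and 3 to 63 genes, and the direction turned: without normal replicate 1, 2 or 3 the 5, 4 and 3 genes called all had a higher change in tension wood (0 members), and without tension replicate 1, 2 or 3 the 63, 7 and 4 all had a lower one (8, 0 and 0 members). Without normal replicate 2 the estimate of Potri.014G169100.v4.1 turned to 0.042 (edgeR adjusted p = 1), the highest of a range from -3.83. Causes were not tested. Over genes in both tables alone, the members' shares were 30.3% and 1.18%. TMM factors moved the median ratio, bounds included, to 21.5 in Region 1, 29.8 in Region 2 and 28.5 over all regions. Of the 150 members, 122 remained at a 4-fold and 121 at a 16-fold condition, 143 with mean CPM of libraries, 147 with CPM over genes in both tables, 131 to 148 with a replicate left out, and 121, 128 and 117 within Region 1, 2 or 3 alone. Depth limits tension values: a member at 1 to 3 counts has a ratio with a wide interval.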
